A study of Homo sapiens with 16 samples.

Results

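Open chromatin of senescent IMR-90 fibroblasts was compared with that of proliferating ones in 6 of the 16 ATAC-seq libraries of the series. ATAC-seq uses a transposase that inserts sequencing adapters into accessible DNA, so read pile-ups mark open regulatory regions. IMR-90 is a human lung fibroblast line, here carrying ER:Ras, an oncogenic Ras fused to the hormone-binding part of the oestrogen receptor. The senescent group (Sen, 4 libraries) was IMR-90(ER:Ras) with the control siRNA siCtrl and 100 nM 4-hydroxytamoxifen (4OHT) for 6 days. The proliferating group (Pro, 2 libraries) was the same IMR-90(ER:Ras) line with siCtrl and no 4OHT listed. Its titles read Pro, although its cell type label reads as senescent, and the titles were followed. Both groups were sequenced as 35-bp paired-end reads and both carried the fusion and the siRNA. The fusion makes Ras activity depend on an added ligand, so the model is a drug-driven onset in 1 cell line. The labels do not say that replicates came from separate cultures, so the p-values measure only the spread between these libraries, which may be technical.

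The peaks deposited for chromosomes 1 to 22 were merged across the 6 lists wherever they overlapped by at least 1 bp, which gave 127241 regions. A region was called opened when all 4 Sen lists and neither Pro list held a peak there, closed when both Pro lists and no Sen list did, and kept when all 6 did. There were 19588 opened regions (15.4% of all regions), 2240 closed regions (1.76%) and 48430 kept regions.

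Oncogene-induced senescence is a lasting arrest of the cell cycle that follows sustained Ras signalling. Senescent fibroblasts secrete cytokines, chemokines, growth factors and proteases, known together as the senescence-associated secretory phenotype (SASP). Accessible enhancers with elements for AP-1, the JUN and FOS family of transcription factors, are a known feature of this state, as are NF-kappaB-driven cytokine genes and the loss of lamin B1 from the nuclear lamina.

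Promoter sequences are shown for secretory genes with an opened start region or a kept one with higher summit coverage in Sen. The 2 start regions called opened, IL1B and SERPINB2, and the kept start regions with higher summit coverage in Sen, CXCL8, CXCL1 and EREG, are given below with the 250 bases before the annotated start, 5′ to 3′ on the gene's strand (RefSeq, GRCh38.p14). MMP1, which met the same rule, was not among the sequences used. IL1B lies on the minus strand of chromosome 2, SERPINB2 on the plus strand of chromosome 18, and CXCL8, CXCL1 and EREG on the plus strand of chromosome 4. Capitals mark TGANTCA, the letters of the AP-1 element, which reads the same on both strands when its middle base is left out.
IL1B: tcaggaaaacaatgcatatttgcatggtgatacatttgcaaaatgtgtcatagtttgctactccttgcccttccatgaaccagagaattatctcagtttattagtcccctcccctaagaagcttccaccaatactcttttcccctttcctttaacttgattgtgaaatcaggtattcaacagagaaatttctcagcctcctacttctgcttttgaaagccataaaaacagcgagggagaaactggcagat
SERPINB2: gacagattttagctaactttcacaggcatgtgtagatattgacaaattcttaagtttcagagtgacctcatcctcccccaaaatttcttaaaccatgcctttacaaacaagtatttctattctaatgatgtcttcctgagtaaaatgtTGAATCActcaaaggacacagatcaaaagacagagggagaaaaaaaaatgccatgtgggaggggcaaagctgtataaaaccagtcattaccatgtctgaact
CXCL8: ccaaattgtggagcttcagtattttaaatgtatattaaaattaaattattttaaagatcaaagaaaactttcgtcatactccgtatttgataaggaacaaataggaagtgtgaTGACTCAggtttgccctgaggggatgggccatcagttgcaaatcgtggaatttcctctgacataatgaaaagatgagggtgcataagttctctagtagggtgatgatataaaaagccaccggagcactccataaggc
CXCL1: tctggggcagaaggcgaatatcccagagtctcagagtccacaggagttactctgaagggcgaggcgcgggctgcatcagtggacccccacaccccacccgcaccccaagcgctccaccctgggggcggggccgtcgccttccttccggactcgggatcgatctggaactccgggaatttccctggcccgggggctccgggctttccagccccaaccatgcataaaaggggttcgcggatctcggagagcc
EREG: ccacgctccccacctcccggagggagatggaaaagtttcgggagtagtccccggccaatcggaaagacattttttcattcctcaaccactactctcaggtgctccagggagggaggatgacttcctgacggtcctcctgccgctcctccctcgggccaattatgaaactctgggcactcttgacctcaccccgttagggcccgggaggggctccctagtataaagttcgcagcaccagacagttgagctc
The letters occurred in 2 of these 5 windows, 102 bases before the start of SERPINB2 and 137 bases before that of CXCL8, and in 2308 of 35116 RefSeq promoters (6.57%) over the same 250 bases. The genes were chosen after their values were seen, a match is a description and not a site, and the peaks, called on hg19, could not be placed base by base on these sequences.

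At IL1B, which encodes a leading inflammatory cytokine of the SASP, the start region (hg19 chr2:113594168-113594689) had a peak in the 4 Sen lists only, with summit folds over local background of 4.93, 5.05, 7.44 and 6.64 in Sen replicates 1 to 4. Neither Pro list held it, and neither did the separate single-end Sen lists, which were shorter (53719 and 66524 peaks). Its weakest Sen coverage was 0.822 times what could have gone unlisted in Pro, so it sets no lower bound on a fold. In bulk libraries, a change in the share of cells in which a region is open and a change within each cell cannot be told apart. At SERPINB2, an inhibitor of plasminogen activators, the start region (chr18:61554658-61555031) had summit folds of 5.93, 5.33, 5.27 and 5.02 in Sen and no peak in Pro. Both single-end Sen lists held a peak there, and the presence calls bounded the fold at 1.24 or more.

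CXCL8, CXCL1 and MMP1 showed a larger difference in a second measure, the read pile-up at the summit divided by the library's genome-wide background (summit coverage), recovered from the deposited p-values and folds. This measure was added after the data had been seen. At the start of CXCL8, a neutrophil-attracting chemokine (chr4:74606133-74607543), summit coverage was 73.7, 82.0, 72.3 and 72.5 times background in Sen, against 29.3 and 25.3 times in Pro. At the start of CXCL1, a related chemokine, it was 27.9, 29.2, 25.2 and 23.8 in Sen, against 10.9 and 10.6 in Pro. At the start of MMP1, an interstitial collagenase, it was 65.8, 69.6, 55.3 and 60.0 in Sen, against 25.3 and 26.3 in Pro. All Sen values lay above both Pro values at the 3 genes, while the median over all kept regions was 35.5 to 41.2 in Sen and 37.3 to 37.9 in Pro. These 3 genes and EREG were picked by this measure. Theirs were the 4 of 33 kept start regions called higher by coverage, where 18.3% of all kept regions were.

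Ranked within each library over the kept regions and expressed as a normal score, in units of 1 SD of that ranking, summit coverage was higher in Sen by 1.69 ± 0.14 at CXCL8 (SE; limma with Benjamini-Hochberg adjustment, adjusted p = 8.95e-06), by 1.47 ± 0.20 at CXCL1 (limma adjusted p = 0.000193) and by 1.38 ± 0.14 at MMP1 (limma adjusted p = 3.27e-05). EREG, an epidermal growth factor receptor ligand, had coverage of 37.5, 26.8, 32.4 and 31.2 in Sen and 16.1 and 17.2 in Pro, without overlap. Its score was higher by 0.91 ± 0.20 (limma adjusted p = 0.0047).

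The deposited fold over local background gave another reading at CXCL8. It was 6.39, 5.47, 8.53 and 12.2 in Sen, against 15.4 and 12.3 in Pro, so that every Sen value was below both Pro values. The score of this fold was lower in Sen by 1.15 units (score difference -1.15 ± 0.38 SE, limma adjusted p = 0.046). The fold divides by the reads around the summit, and coverage does not; CXCL8 was called in opposite directions by the 2 measures. At the starts of CXCL1, MMP1 and EREG the score difference of the fold was -0.48, 0.42 and -0.15, none past the threshold.

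Of the 14 kept regions within 25 kb of 5 protease genes, 4 were higher in Sen by both measures and 0 lower. Of the 33 near 12 SASP signalling genes, 1 was higher by both and 8 were lower. Of all 48430 kept regions, 4616 were higher by both and 3153 lower. MMP3 encodes stromelysin, a matrix metalloproteinase. The region upstream of its start (chr11:102722031-102722453) had summit folds of 14.5, 15.5, 17.5 and 18.5 in Sen, against 6.93 and 8.73 in Pro. All Sen values lay above both Pro values, with a score difference of 2.14 ± 0.25 (limma adjusted p = 0.000637). The start region of MMP3 had folds of 15.6, 17.2, 19.6 and 19.4 in Sen, no peak in Pro replicate 1 and a fold of 6.04 in Pro replicate 2, and so fell in neither the opened nor the kept class. The region downstream of the start (chr11:102706675-102707442) had folds of 10.8, 11.5, 15.7 and 12.9 in Sen and 6.86 and 8.28 in Pro, a score difference of 1.37 ± 0.29 (limma adjusted p = 0.00679). Of the 5 regions within 25 kb of MMP3, 2 were kept, and both were higher in Sen by the fold and by coverage. Of all kept regions, 13.9% were higher by the fold and 18.3% by coverage.

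LIF, a cytokine of the interleukin-6 family, had regions of both directions. Of its 4 kept regions within 25 kb, 1 was higher and 2 were lower by both measures, as were 4616 and 3153 of all 48430. Of its 13 regions, 3 were opened and 1 closed, where 15.4% and 1.76% of all regions were. The higher kept region, chr22:30620110-30620786, had folds of 11.1, 8.90, 12.8 and 13.7 in Sen and 5.70 and 5.97 in Pro. Every Sen value exceeded both Pro values, with a score difference of 1.68 ± 0.27 for the fold (limma adjusted p = 0.00196) and 2.32 ± 0.19 for coverage (limma adjusted p = 8.37e-06). Of the 33 kept start regions, 1 was higher and 7 were lower by the fold, where 13.9% and 13.6% of all kept regions were. Of the 7, 2 were also lower by coverage, FOSL1 and SPRY4. INHBA, an activin subunit, had the higher one, with folds of 5.85, 5.81, 6.55 and 6.47 in Sen and 5.12 and 4.79 in Pro and a score difference of 0.64 ± 0.19 (limma adjusted p = 0.033); its coverage score differed by 0.30 (limma adjusted p = 0.135).

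Over all regions within 25 kb of a start, the 12 SASP signalling genes had 93 regions, of which 14 were opened and 2 closed. The opened share, 15.1%, was close to the 15.4% of all regions. Of their 33 kept regions, 2 were higher (6.06%) and 11 lower (33.3%) by the fold, where 13.9% and 13.6% of all kept regions were; 11 were higher and 9 lower by coverage, where 18.3% and 16.4% of all kept regions were. By both measures 1 of the 33 was higher and 8 were lower, as were 4616 and 3153 of all 48430 kept regions. The 8 included 3 regions near GDF15, a stress-induced growth factor, and 1 near CXCL1 (chr4:74757641-74758189). The CXCL1 region had folds of 8.08, 6.09, 8.70 and 7.42 in Sen and 14.3 and 16.7 in Pro. Regions of both directions therefore lay near these genes, with more lower than higher where the measures agreed.

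The 5 protease-axis genes had 34 regions, 6 opened (17.6%) and 0 closed. Of their 14 kept regions, 4 were higher and 4 lower by the fold, where 13.9% and 13.6% of all kept regions were, and 10 were higher and 0 lower by coverage, where 18.3% and 16.4% of all kept regions were. The 4 that were higher by the fold were also higher by coverage, whereas none of the 4 lower ones was also lower by coverage. Of the 28 opened regions near any of the 43 genes examined, 1 had a fold bounded at 2 or more, where 27.2% of all opened regions had such a bound (4.18% of all regions). Of the same 28, 6 were in both single-end Sen lists and 18 were in neither, where 30.1% of all opened regions were in both and 52.3% in at least 1.

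That bounded region lay upstream of JUN, an AP-1 subunit (chr1:59274980-59275583). Its summit folds were 13.4, 13.3, 14.1 and 16.0 in Sen, with no peak in either Pro list, and its fold was bounded at 3.095 or more. Both single-end Sen lists held it. JUN had 2 kept start regions. The one at chr1:59249011-59250522 had folds of 7.58, 6.80, 8.52 and 9.71 in Sen and 12.51 and 12.39 in Pro, lower by the fold (score difference -0.83, limma adjusted p = 0.0212) but not past the threshold by coverage (-0.15, limma adjusted p = 0.445). The one at chr1:59250678-59251104 had folds of 3.25, 3.65, 3.51 and 4.09 in Sen and 3.38 and 3.11 in Pro, which overlapped, and passed the threshold by neither measure. Near SPRY4, a feedback inhibitor of Ras signalling induced by that pathway, the region chr5:141721526-141722648 had summit coverage of 71.3, 77.2, 70.7 and 75.6 in Sen and 11.5 and 12.6 in Pro. Its coverage score differed by 3.01 ± 0.15 (limma adjusted p = 2.25e-06) and its fold score by 1.07 ± 0.24 (limma adjusted p = 0.00941). The start region of SPRY4 went the other way by both measures, with folds of 5.72, 5.81, 5.91 and 5.98 in Sen and 9.51 and 9.31 in Pro (score difference -0.86, limma adjusted p = 0.00808).

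The 4 fibroblast genes, collagens and fibronectin, had 39 regions, of which 1 was opened and 6 were closed. The closed share was 15.4%, where 1.76% of all regions were closed. The closed regions were 3 near COL1A2, 2 near COL1A1 and 1 near FN1. The region upstream of COL1A1 (chr17:48281388-48281676) had summit folds of 5.39 and 4.00 and summit coverage of 108 and 87.0 times background in Pro and no peak in the 4 Sen lists, which bounded its loss at 2.40-fold or more. The region within FN1 (chr2:216295534-216295869) had folds of 7.33 and 5.89 in Pro, with a bound of 2.29, and the other 4 had bounds under 2; 65.8% of all closed regions had a bound of 2 or more (1.16% of all regions). Near all 43 genes, 8 of the 8 closed regions were in no single-end Sen list, where 5.27% of all closed regions were in at least 1.

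Of the 12 kept regions of the fibroblast genes, 0 were higher and 2 lower by the fold, where 13.9% and 13.6% of all kept regions were, and 0 were higher and 7 lower by coverage, where 18.3% and 16.4% of all kept regions were. The start of COL1A2 had coverage of 47.5, 39.6, 61.2 and 65.5 in Sen and 118 and 133 in Pro, with a coverage score difference of -0.99 (limma adjusted p = 0.0106). The start of COL1A1 had 59.6, 54.4, 64.4 and 65.5 in Sen and 114 and 119 in Pro, a difference of -0.61 (limma adjusted p = 0.0163). Sen and Pro did not overlap at either start. The fold did not pass the threshold there, with score differences of -0.41 at COL1A2 and -0.27 at COL1A1.

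**Figure D1:**
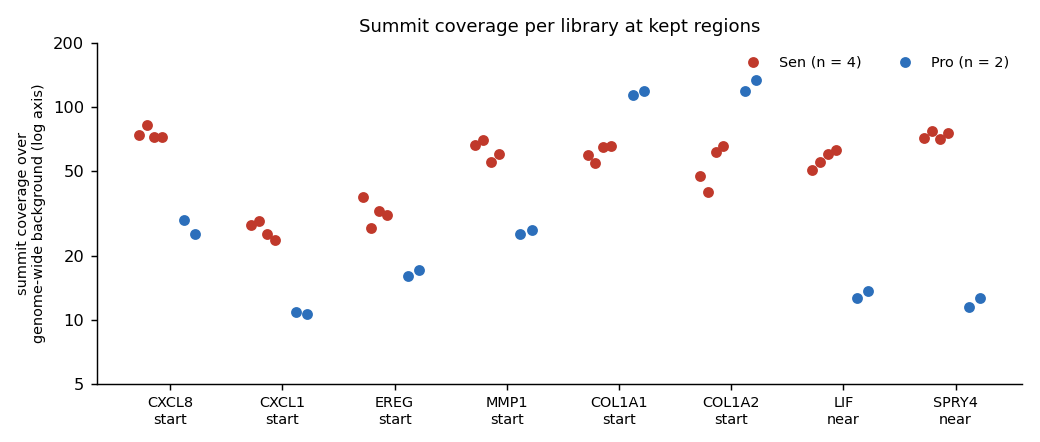
Summit coverage as a multiple of genome-wide background (vertical log axis) in each library, Sen points left of Pro points, at 6 kept start regions and at the kept regions near LIF and SPRY4 with the largest coverage score difference. Sen lies above Pro at all but the starts of COL1A1 and COL1A2, where Sen lies below Pro. Not shown are 2 kept regions near LIF and 1 near SPRY4 that were lower in Sen by both measures.

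Cell cycle genes showed few differences in presence. All 7 (CCNB1, CCNA2, CDK1, TOP2A, MKI67, E2F1 and LMNB1) had a kept start region, and the score differences at the starts ranged from -0.69 to 0.12. Of their 21 regions 0 were opened or closed, where 15.4% and 1.76% of all regions were. Of their 15 kept regions, 0 were higher and 3 lower by the fold, where 13.9% and 13.6% of all kept regions were. By coverage 0 were higher and 2 lower, where 18.3% and 16.4% of all kept regions were. LMNB1, which encodes lamin B1, was the single one of the 7 starts past the threshold, with folds of 9.04, 8.36, 8.88 and 8.64 in Sen and 12.53 and 11.7 in Pro (score difference -0.59, limma adjusted p = 0.0418). Its coverage was not (limma adjusted p = 0.124). The CDK inhibitor genes CDKN1A, CDKN2A and CDKN2B, known for holding the arrest, had kept start regions that were not past the threshold. Of the 14 regions of these 3 genes, 1 was opened (7.14%) and 0 closed, where 15.4% and 1.76% of all regions were. Of the 9 kept, 1 was higher and 1 lower by both measures, as were 4616 and 3153 of all 48430 kept regions. At CDKN1A the folds were 6.22, 6.72, 7.75 and 8.88 in Sen and 10.3 and 8.87 in Pro, and at CDKN2A they were 9.24, 12.0, 8.01 and 8.39 in Sen and 9.35 and 9.90 in Pro, with overlapping groups at both.

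Among the transcription factor genes FOXF1, FOXF2, JUN and FOSL1, 3 of 29 regions were opened and 0 closed, and of 18 kept, 1 was higher and 3 lower by the fold. The Ras feedback genes SPRY2 and SPRY4 had 14 regions, 1 opened and 0 closed, and of 6 kept, 2 were higher and 1 lower by the fold. The housekeeping genes GAPDH and ACTB had 17 regions, 0 opened or closed, and of 11 kept, 1 was higher and 4 lower by the fold. Beside these small counts, 15.4% of all regions were opened and 1.76% closed. Of all kept regions, 13.9% were higher and 13.6% lower by the fold.

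The labelled cell type was checked against marker genes. The starts of COL1A1, COL1A2 and FN1 were kept in all 6 lists, that of COL3A1 was in 1 Sen and 1 Pro list, and the epithelial, endothelial and leukocyte markers CDH1, CDH5 and PTPRC had no region within 1 kb of the start. The epithelial marker EPCAM had a kept start region and an upstream kept region (chr2:47588094-47588547) with folds of 15.4, 15.4, 14.8 and 18.0 in Sen and 9.32 and 9.26 in Pro. The 4 marker genes of other cell types had 14 regions in all, 2 opened (14.3%) and 0 closed, where 15.4% and 1.76% of all regions were. Of 6 kept, 1 was higher and 1 lower by both measures, as were 4616 and 3153 of all 48430 kept regions. The part of other cells in any result was not tested. The housekeeping gene GAPDH had lower folds at its start in Sen, 5.11, 5.08, 5.59 and 6.45, against 8.87 and 7.75 in Pro (limma adjusted p = 0.0298), and no difference past the threshold in coverage (limma adjusted p = 0.536).

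**Figure D2:**
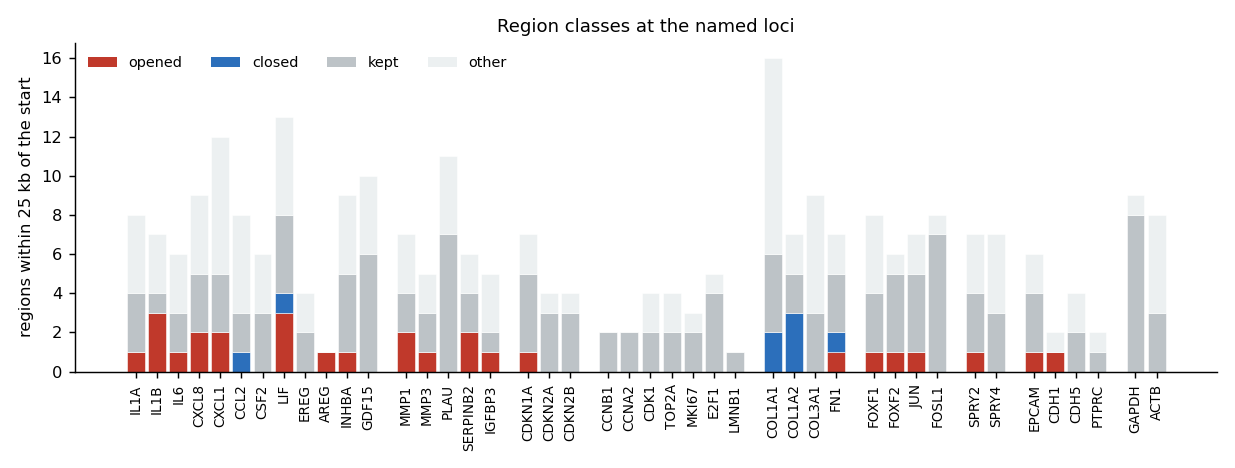
Number of regions within 25 kb of the start of each of 43 genes (vertical axis), stacked by class, with the genes on the horizontal axis in their groups, SASP and protease genes on the left. The SASP and protease genes hold 14 and 6 of the 28 opened regions and the fibroblast genes 6 of the 8 closed ones; 15.1% of the SASP and 17.6% of the protease regions were opened, where 15.4% of all regions were, and 15.4% of the fibroblast regions were closed, where 1.76% of all regions were.

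The libraries differed in ways that bear on all of these calls. On chromosomes 1 to 22 the Sen lists held 99387, 100656, 96512 and 99432 peaks and the Pro lists 63860 and 64904 (98997 ± 1758 against 64382 ± 738, SD, n = 4 and 2, a ratio of 1.54). The 4 Sen lists were all longer than both Pro lists, and the two-sided exact permutation p was 0.13, the smallest that 4 against 2 libraries can give (0.178 after Benjamini-Hochberg adjustment over 8 library measures). Read totals are not given, but the genome-wide background coverage recovered from the folds was 2.50 to 3.06 reads in Sen and 1.74 to 1.98 in Pro. A peak had to reach 4.58 to 5.20 times that background to be listed in Sen, against 6.07 to 6.31 times in Pro. Depth and condition therefore cannot be told apart as sources of the longer lists. The peak names of Pro and of Sen replicates 1 and 2 share a style that those of Sen replicates 3 and 4 do not.

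**Figure D3:**
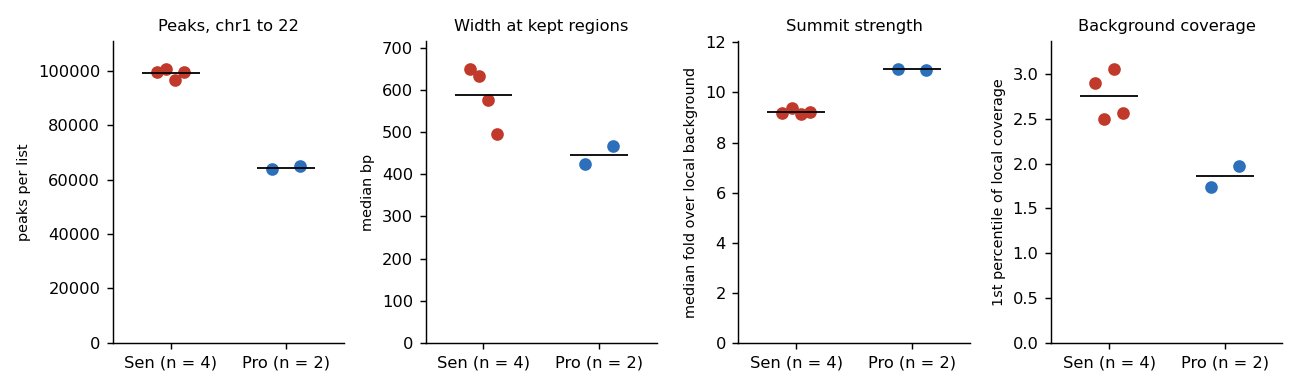
Peaks per list, median width in bp at kept regions, median summit fold and background coverage, Sen left of Pro, with 1 point per library and a line at the mean. The 4 Sen libraries lie above both Pro libraries in peak number, width at kept regions and background, and below them in median fold (9.16 to 9.37 against 10.9 and 10.9).

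Opened regions were a substantial part of the Sen lists and closed ones a small part of the Pro lists. Of the 74857 regions in all 4 Sen lists, 26.2% were opened, and of the 56165 in both Pro lists, 3.99% were closed. Single-list regions were 16.1% of all regions. Any pair of Sen lists shared at least 81.3% of their regions, and the Pro lists shared 90.1% of replicate 1 and 88.0% of replicate 2.

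**Figure D4:**
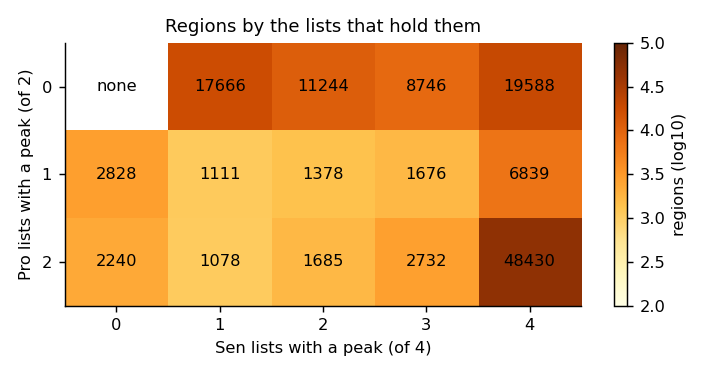
Number of regions for each combination of Sen lists (0 to 4) and Pro lists (0 to 2) that hold a peak. The largest cell is the kept class (48430 regions in all 6 lists), followed by the opened class (19588 regions in 4 Sen and 0 Pro lists), while the closed class holds 2240.

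The excess of opened over closed regions depended on list length. When each list was cut to its 63860 strongest peaks, 7479 regions were opened and 7743 closed. Lists of equal length leave little room for an excess in either group, so this near balance cannot show whether more regions opened than closed. Of the 19588 opened regions, 37.9% were still opened and 21.1% had no region left. Of the 2240 closed ones, 97.8% were still closed. These 2 shares are not comparable. The Pro lists, with 63860 and 64904 peaks, were hardly shortened, and a cut adds no Sen peak, so closed regions could hardly drop out. Opened regions were commoner among the weaker Sen regions. With the regions in all 4 Sen lists ranked into 10 equal classes by strength, 41.0% of the weakest class were opened and 7.64% of the strongest. The closed share of the regions in both Pro lists was 9.72% in the weakest of 10 such classes and 0.0534% in the strongest.

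A lower bound on the size of a change can be set where the weakest coverage in the lists that hold a peak exceeds what could have gone unlisted in the others. The bound takes the relative local background to be the same in all lists. By this measure 5322 opened regions (4.18% of all regions and 27.2% of the opened ones) and 1474 closed regions (1.16% of all regions and 65.8% of the closed ones) changed by at least 2-fold. The bound divides by the coverage needed for listing in the other group, which was lower in Sen than in Pro, so the shares of the opened and the closed regions are not comparable.

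The opened and closed calls were set beside 2 further Sen libraries that took no part in them, made with siCtrl and 100 nM 4OHT for 6 days and read as 75-bp single-end reads. These lists were shorter, with 53719 and 66524 peaks on chromosomes 1 to 22, against 96512 to 100656 in the paired-end Sen lists. Where they lack a peak, a shorter list and a failure to repeat cannot be told apart. Both single-end lists held a peak at 30.1% of opened regions (95% Wilson interval 29.4 to 30.7), at 1.70% of closed regions (1.24 to 2.32) and at 61.2% of kept regions (60.7 to 61.6). These intervals cover counting error only. Among opened regions the share was larger the stronger the region, with 8.73% where the weakest Sen coverage was under 8 times background, 15.1% at 8 to 12 times, 24.1% at 12 to 16 times, 37.6% at 16 to 24 times and 61.0% at 24 times or more. Among closed regions, by their weakest Pro coverage, it stayed between 1.43% and 2.20% from 8 times background upwards and was 0 of 69 below that (upper limit 5.27%). The median weakest coverage was alike in the classes, 14.4 times background for opened and 14.9 times for closed regions. No single-end Pro library was used, so these shares bear on the presence of peaks in Sen and not on their absence in Pro.

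**Figure D5:**
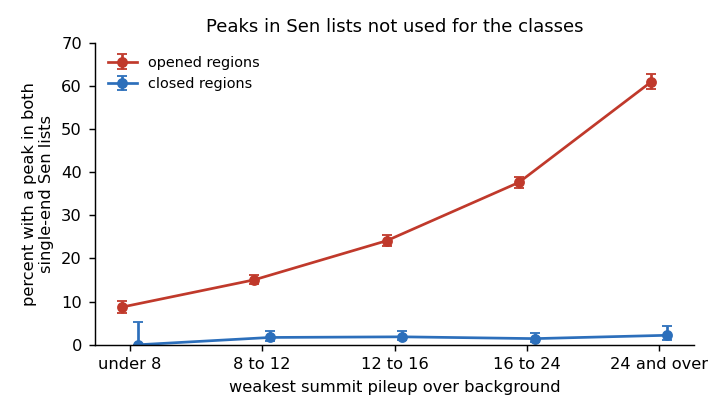
Percent of opened and of closed regions with a peak in both single-end Sen lists (vertical axis) by their weakest summit coverage as a multiple of background (horizontal axis), with 95% Wilson intervals as bars. Opened regions climb to 61.0% in the strongest class, and closed regions stay at or below 2.20%.

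Within the 48430 kept regions, strength differed in both directions in similar numbers. Scores are ranks within each list over the same regions, so every library has the same mean score. The balance of directions therefore cannot show whether there was a net gain or loss of strength. By the rank of the fold, 6752 regions (13.9%) were higher and 6565 (13.6%) lower in Sen at a limma adjusted p under 0.05, with median score differences of 1.07 and -0.89; 19996 regions had an unadjusted p under 0.05. All 4 Sen values lay above both Pro values in 22.5% of kept regions and below both in 27.9%. By summit coverage 8857 were higher (18.3%) and 7937 lower (16.4%). The measures shared 4616 of the higher regions (68.4% of those by the fold) and 3153 of the lower ones (48.0%), and 12 and 166 were called in opposite directions. The regions lower by the fold had a local background 3.88 to 5.09 times the genome-wide one in Sen and 4.16 to 4.51 times in Pro, against 2.60 to 3.30 times in Sen and 2.48 to 2.62 times in Pro over all kept regions. Its part in those calls was not tested.

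Without Pro replicate 1, the counts fell to 2561 higher and 1322 lower, and without Pro replicate 2 to 3206 and 1948. The single Pro library left was then assumed to vary like the Sen ones.

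The largest named increase by that score was at chr7:23940-24503, near the end of the chromosome, with folds of 30.2, 29.3, 35.9 and 37.9 in Sen and 10.6 and 10.4 in Pro (33.3 ± 4.25 against 10.5 ± 0.117, SD, n = 4 and 2). Its score difference was 3.90 ± 0.22 (limma adjusted p = 7.86e-05), but neither single-end Sen list held it. The next, chr15:31164397-31164967, had folds of 21.3, 21.9, 20.5 and 21.7 in Sen and 7.29 and 6.72 in Pro, a score difference of 3.63 ± 0.25 (limma adjusted p = 0.000267), and was in both single-end Sen lists. In both regions all Sen values lay above the Pro values, but absence of overlap was a condition for naming a region here. Of the 8 named increases, 6 were in both single-end Sen lists, where 69.4% of all kept regions higher by the fold were. The score differences of the 8 ran down to 3.07 at chr11:32139843-32140681.

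The largest named decrease was at chr3:27472638-27473026, with folds of 9.44, 8.46, 11.2 and 11.9 in Sen and 25.6 and 24.9 in Pro. By the same condition, all Sen values lay below both Pro values. The score difference was -3.18 ± 0.24 (limma adjusted p = 0.000364), and summit coverage was lower too (-1.72, limma adjusted p = 8.15e-05). The next 2 decreases, chr1:68577484-68578040 and chr1:68569962-68570247, were lower by the fold (score differences of -2.68 and -2.65) but not past the threshold by coverage (-0.18 and 0.16). Of the 8 named decreases, 0 were in both single-end Sen lists, where 59.2% of all kept regions lower by the fold were.

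Peaks at kept regions were wider in Sen. The median width was 650, 634, 576 and 495 bp in Sen replicates 1 to 4, against 424 and 468 bp in Pro (589 ± 70.1 against 446 ± 31.1 bp, SD, n = 4 and 2). Every Sen value exceeded both Pro values, with a two-sided exact permutation p of 0.13, the smallest possible. The mean width was larger in Sen at 83.7% of kept regions, and the median log2 ratio was 0.29. The ratio was 0.70 in the regions higher in Sen by the fold and 0.11 in those lower. The summits of Sen and Pro lay a median of 19 to 25 bp apart, against 8 to 21 bp between libraries of the same group. Width and depth move together here, as background coverage was higher in every Sen library, and their part was not tested.

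Most opened regions stood alone. Regions of one class were joined into a group where their edges lay at most 0.5 times 25 kb apart. Within that distance of another opened region lay 28.5% of them, against 5.13% of closed regions with another closed one and 56.4% of kept regions with another kept one. The median distance to the nearest region of the same class was 26.5 kb for opened, 240 kb for closed and 10.5 kb for kept regions, longer the rarer the class. Among regions in all 4 Sen lists, the region following an opened one along the chromosome was opened in 29.6% of cases, and the one following a kept region in 24.6%. With lists of equal length these shares were 18.1% and 14.2%. Joined at that distance, opened regions formed 14006 single ones, 2043 pairs, 377 groups of 3, 76 of 4, 11 of 5 and 1 of 6.

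The group of 6 spanned 38.97 kb of chromosome 10 (chr10:112114051-112153021), with summit folds from 3.86 to 10.1 in Sen replicate 1, 3.53 to 10.6 in replicate 2, 3.64 to 10.6 in replicate 3 and 3.82 to 10.6 in replicate 4. It held 1 kept region and no closed one. The 8 largest opened groups held 41 regions, of which 9 were in both single-end Sen lists and 8 had a fold bounded at 2 or more. Of all opened regions 30.1% and 27.2% were. The largest closed group, chr10:42791281-42818121, held 5 regions with folds of 4.17 to 5.83 in Pro replicate 1 and 4.09 to 5.71 in replicate 2, and 0 of those regions were bounded at 2 or more. Every region was bounded at 2 or more in 3 closed groups, the 3 regions at chr11:95404874-95426275 (bounds 2.85 to 4.11), the 3 at chr3:183705917-183721730 (bounds 2.13 to 4.03) and the pair at chr11:75365540-75367057 (bounds 2.11 to 2.73). Of the 25 regions in the 8 largest closed groups, 1 was in a single-end Sen list, where 5.27% of all closed regions were in at least 1.

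The longest run of neighbouring opened regions, with no other region of all 4 Sen lists between them, was 10 regions over 223 kb at chr13:102571950-102794827. Runs of 3 or more numbered 1215 and held 22.3% of the opened regions.

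Of 2570 windows of 1 Mb with a region, that with the most opened regions was chromosome 7 from 41 to 42 Mb. There 30 of 62 regions in all Sen lists were opened (48.4%), where 26.2% of all such regions were. Windows with more kept regions also held more opened ones (Spearman rho 0.70). That window on chromosome 7 holds INHBA, which has 9 regions within 25 kb, 1 of them opened.

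The opened share of the regions in all 4 Sen lists was highest on chromosome 13 (29.9%) and lowest on the densely gene-bearing chromosome 19 (14.9%), and with lists of equal length 17.8% and 7.93%. On chromosome 19, 6.25% of kept regions were higher and 19.6% lower in Sen by the fold, against 13.9% and 13.6% of all kept regions.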

How the data were processed

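The authors deposited a narrowPeak list for each library, with no pooling of replicates. Bowtie2 2.3.4.1, SAMtools 1.9, deepTools 3.1.1, MACS2 2.1.1 and the build hg19 are named per the submitters' processing notes; how reads were shifted and duplicates treated is not given in the sources used here. In each deposited list, column 7 is the fold (ratio) of summit reads over local background, columns 8 and 9 are the −log10 p-value and −log10 q-value, and the score of column 5 was not used. The 6 paired-end lists and, as an outside check, 2 single-end Sen lists were read; columns from samples outside the labels numbered 0.

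Regions were built as stated above. Strength was the normal score of the rank of the fold over the 48430 kept regions, tested with limma 3.58.1 (R 4.3.3, trend on) and Benjamini-Hochberg adjustment at 0.05; as the lists hold no counts per region, no count model was used. Summit pile-ups were recovered from the Poisson p-value and the fold, and 100% were whole numbers within 0.002 in −log10 p, widened in proportion above 10. Background is the 1st percentile of the local background. Library values were compared with two-sided exact permutation tests (Python 3.11.15, numpy 2.4.6, pandas 2.3.3, scipy 1.17.1). On simulated data with 200 of 48430 regions changed, the limma step recovered 0% at a log2 change of 0.5, 68.5% at 1 and 91.5% at 1.5, with 0, 9 and 4 unchanged regions called. The simulated noise was independent between regions, and far fewer regions changed than the 6752 higher and 6565 lower ones called in the data. These rates therefore do not give the power or the false calls of the results above.

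Gene starts were hg19 positions known to the nearest kb; 43 of 43 matched the symbol and chromosome of the RefSeq table and 39 had a region within 1 kb. Named regions were the 8 opened and 8 closed groups with the most regions, the 8 kept regions with the largest higher and lower score differences past the threshold without overlap between groups, the 5 widest opened and closed regions, and the gene loci. Members and lists were chosen with earlier results of these data known. One gene of the lists is not reported here and was left out of their counts. The total reads per library are unknown, and intervals cover counting error only. Alternatives are given in the closing section. The 10 other libraries of the series were not compared here, apart from the 2 single-end Sen lists.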

Additional observations from a re-analysis of the deposited data

Results flagged for a closer look

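Among 70 groups of 4 Sen values, 3 had 1 value set apart from the other 3, its gap to the nearest, as a part of the whole range, being above Dixon's 95% critical value for 4 samples; chance alone marks about 1 in 20 such groups. The third-widest opened region, chr2:196994669-196997115, had summit folds of 5.65, 7.03, 7.11 and 7.04 in Sen replicates 1 to 4 (gap 0.943 of the range). An opened region in a group on chromosome 6, chr6:14661156-14661615, had 4.69, 4.07, 4.04 and 4.02 (gap 0.923). One on chromosome 12, chr12:116995134-116995461, had 5.61, 8.89, 9.09 and 9.45 (gap 0.852). Sen replicate 1 was the value apart in each, lower on chromosomes 2 and 12 and higher on chromosome 6.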

How the results depend on the processing

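The ratio of peak numbers (1.52 to 1.55 over 9 alternatives) and the width ratio (log2 0.16 to 0.38 over 11) kept their direction. Without 1 library, opened regions numbered 21334 to 23439, closed 2406 to 3790 (3790 without Pro replicate 1, 3585 without Pro replicate 2), higher kept regions 2561 to 6912 and lower ones 1322 to 6817; the share of opened regions near another was 30.5% to 32.7%, of closed ones 4.95% to 9.57%, and an opened region was next after an opened one in 30.8% to 35.0%. Fewer lists make each class easier to enter. With equal list lengths the counts were 7479 opened and 7743 closed and the shares 13.5%, 15.1% and 18.1%. With a fold bounded at 2 or more they were 5322 and 1474. With Sen replicates 1 and 2 alone, 3628 regions were closed and the shares were 37.9%, 8.35% and 36.6%; with replicates 3 and 4 alone, chosen after seeing the data, the shares were 36.9%, 6.74% and 33.9%. At 5 kb the opened and closed shares near another were 11.1% and 1.92%, and at 25 kb 48.1% and 9.78%. By summit coverage, also chosen after seeing the data, 1 of 16 named regions, chr1:68569962-68570247, reversed to 0.16 (limma adjusted p = 0.591) and its neighbour fell below the threshold; the other 214 of 216 values kept direction and call. With equal list lengths the 8 named decreases have no value and are not among the 216, since none was then in all 6 lists. The SASP genes had 26 of 89 regions opened with Sen replicates 1 and 2 alone, where 29221 of all 118588 were. With at least 3 of 4 Sen lists 23 of 93 were, where 28334 of all 127241 were. With equal lengths 4 of 62 were (7479 of all 92032), and with a bound of 2, 0 of 93 (5322 of all 127241). The protease genes had 0 of 24 opened with equal lengths and 0 of 34 with a bound of 2, against 6. The fibroblast genes had 11 of 32 closed with equal lengths (7743 of all 92032) and 2 of 39 with a bound of 2 (1474 of all 127241), against 6. The replicate numbers pair no samples in the labels. Deviations from the group means had r = -0.081 between Sen 1 and Pro 1 and 0.10 between Sen 2 and Pro 2. With 2 Pro libraries these deviations mirror each other, so the values cannot show whether pairs exist. With a replicate block, in which Sen replicates 3 and 4 have no Pro partner, 8355 regions were higher and 8480 lower. The causes of these changes were not tested. A peak had to reach more coverage over background to be listed in Pro than in Sen, so that weaker peaks could go unlisted in Pro.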

Other observations

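The widest closed region, chr7:57547149-57550313, had summit folds of 8.76 and 7.33 in Pro and no peak in Sen. The other 4 of the 5 widest closed regions were at chr10:39131692-39133741, chr10:42806790-42808656, chr10:38774494-38776054 and chr20:26313837-26315784. Of the 5, 0 had a peak in a single-end Sen list, where 5.27% of all closed regions had one in at least 1. These positions lie near the centromeres of their chromosomes in hg19. The widest opened region, chr9:140460162-140462721, had folds of 7.17, 7.72, 7.02 and 10.2 in Sen and no peak in Pro, and was in neither single-end Sen list.

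The regions held by all 4 Sen lists and 1 Pro list, 6839 in number, belong to no class above. Both single-end Sen lists held 33.1% of them, against 30.1% of opened and 61.2% of kept regions.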
